A study of Drosophila melanogaster with 53 samples.

Results

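Whole Drosophila melanogaster males that had received 20000 R (roentgen, which measures how much ionizing radiation reaches the air around a sample) were compared with males that had received 1000 R, both collected 20 days after exposure. Exposure took place 2 days after eclosion, and mRNA of whole bodies was sequenced with an Illumina TruSeq kit. The comparison takes 6 of the 53 libraries of the series, the 3 whose columns are headed with the higher dose and day 20 and the 3 headed with the lower dose and the same day, and 12475 of 15222 genes, those whose mean over all libraries reached 10 normalized counts. By its title the study asks whether the response to radiation has a threshold. Strain and genotype were not given in the sources used here. No label says that the 3 libraries of a group came from separate cultures or animals, so a p-value measures only the spread between libraries of one group, pooled over all 18 groups of the series, and that spread may be technical.

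Sperm in flies are made from germline stem cells at the tip of the testis. A stem cell daughter divides as spermatogonia, grows as a spermatocyte while it transcribes nearly all the genes that later stages need, passes meiosis and becomes a spermatid, which builds a long tail and packs its chromatin with protamines. Many genes of this line are used in no other tissue, and the testis has its own copies of parts of the proteasome, the respiratory chain and the ribosome. Dividing germ cells are a classical target of ionizing radiation, while most cells of an adult fly no longer divide.

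Recovered depth was 20.9 to 24.4 M reads in the 1000 R libraries, called a, b and c, and 30.03 to 46.2 M in those of 20000 R, so depth was higher in every 20000 R library and its part in the results was not tested. Detected genes per library, those above 0, ran from 13127 in 1000 R library b to 13647. All 82 genes of the germ line marker lists were in the table, and their summed level was 133000 to 162900 normalized counts at 1000 R and 9169 to 9900 at 20000 R. Other tissues' markers moved less. Summed levels at 20000 R and 1000 R were 11700 to 13240 and 3886 to 13530 for 6 accessory gland genes, with library b of 1000 R lowest, 5358 to 6275 and 2932 to 3838 for 4 blood cell genes, 1140 to 1464 and 814 to 939 for 7 genes of yolk and egg, and 105500 to 127200 and 110600 to 127900 for 4 genes of the eye. No marker in these lists was at 0 in all 6 libraries. In whole flies, fewer cells of a type and less RNA per cell cannot be told apart. In the rest of the series 9 libraries stand apart by few detected genes or by high yolk protein or histone values. None of them is among these 6, but they enter the pooled estimate of spread.

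At day 20, 2292 genes were lower and 214 higher at 20000 R than at 1000 R (limma, Benjamini-Hochberg adjusted p under 0.05 over 12475 genes), which is 18.4% and 1.72% of the genes tested, 20.1% together. The falls were large. Their median was -4.72 on the log2 scale, 1961 exceeded 1, 1661 exceeded 2 and 1057 exceeded 5, and in 34 of them no 20000 R library had a read. Set to the bound that 3 reads per library allow, these 34 leave the median at -4.64. The rises were small, with a median of 0.57, 38 over 1 and 10 over 2. The genes that fell held 13.4 to 15.5% of all normalized counts in the 1000 R libraries and 3.74 to 3.80% in the 20000 R libraries, while those that rose went from 1.67 to 1.84% up to 2.84 to 2.94%. The 20000 R and 1000 R libraries did not overlap for 2286 of the falls and 211 of the rises, beside 48.3% of all genes tested.

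**Figure D1:**
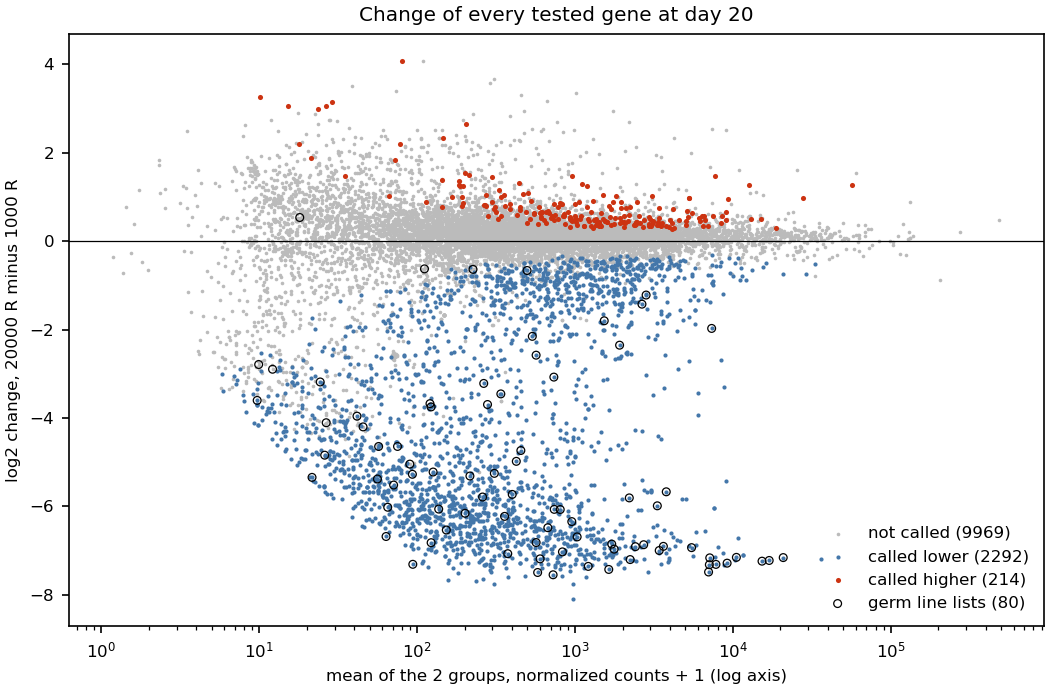
Log2 change between 20000 R and 1000 R at day 20 (y axis) against the mean of both groups in normalized counts + 1 (log x axis), 1 point per tested gene, coloured by call, with members of 6 germ line lists circled. The 2292 genes called lower reach down to -8.09, and the 214 called higher lie mostly under 1.

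The number of rises rested on the estimate of spread and on the scaling, and the number of falls less so. Fitting only the 6 libraries gave 904 rises and 2845 falls, and leaving out the 9 libraries set apart gave 1032 and 2936. Quantile normalization, which forces one distribution on every library, gave 2748 rises and 2019 falls and moved the median of all genes from 0.07 to 0.36, so a rise below is a rise under the deposited scaling. edgeR on the recovered reads gave 202 and 2348, and DESeq2 287 and 2485. Without 1 of the 6 libraries the rises numbered 131 to 146 and the falls 2038 to 2236. The rises numbered 134 without 1000 R library a, 131 without 20000 R library b and 138 without 20000 R library c, all less than 214 by over 1.5 times. Of the 2292 falls, 1982 were also called lower after quantile normalization, and of the 214 rises 213 were called higher.

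Some genes of the earliest germ cells were lower at 20000 R. bgcn, which works with bam in early germ cells, stood at 823, 559 and 887 normalized counts in 1000 R libraries a, b and c and at 20.4, 16.4 and 7.42 in the 20000 R libraries. The groups were far apart, with the 1000 R mean 51.3-fold higher (log2 change -5.67 ± 0.51 SE, adjusted p 3.47e-12, limma). Phf7, a chromatin reader that promotes male germ cell identity, read 236, 197 and 235 at 1000 R and 33.3, 43.8 and 20.3 at 20000 R (log2 change -2.80 ± 0.57 SE, adjusted p 0.000147, limma). Of the 9 genes tested in the list of germline stem cells and spermatogonia, 4 were lower and 0 higher. Over all genes 18.4% were lower and 1.72% higher. The list's median log2 change was -2.12, beside 0.07 over all genes. The others called were bam (-2.88) and chinmo (-1.09), a transcription factor of testis stem cells. The calls of both ended with single libraries left out: bam had an adjusted p of 0.0346 with all 6, and above 0.05 in 5 of those 6 fits, and chinmo 0.0104 and above 0.05 without 1000 R library a or 20000 R library b. Under quantile normalization the list's median was -0.60. nanos and zpg had log2 changes of -2.12 and -2.50 without passing the test.

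The piRNA pathway, which silences transposons in germ cells, had 2 of 15 tested genes lower and 0 higher, beside 18.4% and 1.72% of all genes. mael read 244, 125 and 200 normalized counts at 1000 R and 38.5, 15.8 and 25.2 at 20000 R (log2 change -2.83 ± 0.56 SE, adjusted p 0.000109, limma). papi, a Tudor-domain gene, fell less, by 0.79. The list's median was -0.79 under the deposited scaling and 0.41 under quantile normalization, so no direction is given for it as a whole.

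Genes that switch on the spermatocyte programme fell nearly throughout, beside 18.4% of all genes called lower and 1.72% higher. The meiotic arrest genes and the testis-specific TAFs, which are subunits of the general transcription factor TFIID, had 16 of 17 tested members lower and 0 higher, with a median of -3.96, or -3.83 with nht, which had no read in any 20000 R library, at its bound. topi, a DNA-binding protein of the testis meiotic arrest complex, read 518, 393 and 514 normalized counts at 1000 R and 37.8, 69.9 and 46.5 at 20000 R (log2 change -3.22 ± 0.36 SE, adjusted p 8.97e-10, limma). aly, another member of that complex, was close to background at the high dose, with 119, 65.4 and 142 against 2.27, 0.608 and 1.98 (-5.38 ± 1.07 SE, adjusted p 9.92e-05, limma). vis, a homeodomain protein, stood at 928, 944 and 1036 and at 146, 152 and 189, so 16.7% of its level was left (log2 change -2.58). The member not called was mia, a TAF6 paralog, at 272, 230 and 322 against 157, 184 and 184 (log2 change -0.64, adjusted p 0.214, limma). Its groups did not overlap, which held for 27.1% of all genes in that direction. nht read 57.8, 29.3 and 36.5 at 1000 R.

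Spermatocyte and meiosis genes had 10 of 12 tested members lower and 0 higher, beside 18.4% and 1.72% of all genes. Their median was -4.48. betaTub85D, the tubulin of meiotic spindles and sperm tails, had 14300, 13300 and 14680 normalized counts at 1000 R and 75.6, 84.5 and 104 at 20000 R. That is a 160-fold lower mean, and the 3 libraries of each group lay close together (log2 change -7.32 ± 0.26 SE, adjusted p 1.99e-24, limma). twe, the Cdc25 phosphatase that lets spermatocytes enter meiosis, read 633, 345 and 577 against 33.3, 39.5 and 41.1 (-3.69 ± 0.50 SE, adjusted p 1.03e-07, limma). Cyt-c-d, the cytochrome c of the testis, had a log2 change of -6.69 and fzo, which fuses the mitochondria of spermatids, one of -3.46. The adjusted p of fzo was 0.0159 (limma), and rose above 0.05 without 1000 R library a or c. The 2 members not called were SA2 (-2.79), a cohesin subunit, and tef (0.53).

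Cell cycle genes fell in part. Of 35 tested, 12 were lower and 0 higher, beside 18.4% and 1.72% of all genes, and the 12 are mainly genes of mitosis. polo, a mitotic kinase, read 1177, 838 and 1209 normalized counts at 1000 R and 27.2, 17.6 and 20.8 at 20000 R (log2 change -5.56 ± 0.71 SE, adjusted p 2.77e-08, limma). CycB3, a mitotic cyclin, fell by 4.72, fzy, an activator of the anaphase-promoting complex, by 4.11 and Incenp, of the chromosomal passenger complex, by 3.94. The replication genes Mcm2, Mcm5, Mcm6 and Mcm7 had log2 changes between -1.03 and -0.18 and none was called. The list's median was -0.81, and -0.01 under quantile normalization with 8 members lower and 2 higher.

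Most genes of spermatids fell too, beside 18.4% of all genes called lower and 1.72% higher. The cup and comet genes, whose RNA appears after meiosis and lies at the tail ends of spermatid bundles, had 19 of 22 tested members lower and 0 higher, with a median of -5.90. soti, a regulator of spermatid caspase activation, read 1192, 1093 and 1292 normalized counts at 1000 R and 6.80, 6.08 and 8.90 at 20000 R (log2 change -7.19 ± 0.43 SE, adjusted p 2.31e-17, limma). d-cup, t-cup and s-cup were not called, at -4.20, -2.90 and -0.63.

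Mst and don juan genes of the sperm tail had 11 of 12 tested members lower and 0 higher, beside 18.4% and 1.72% of all genes. Their median was -6.86. Mst98Ca, a repeat protein of the sperm tail, stood at 14640, 13650 and 14200 normalized counts at 1000 R and at 74.8, 100.9 and 124 at 20000 R. Less than 1% of its level was left (0.705%), and the high dose libraries differed among themselves far less than from the low dose ones (log2 change -7.16 ± 0.21 SE, adjusted p 3.30e-27, limma). Mst84Dd had a log2 change of -7.42 and Mst87F one of -6.87.

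Protamines and other sperm chromatin genes had 7 of 8 tested members lower and 0 higher, beside 18.4% and 1.72% of all genes. Their median was -6.86. ProtA read 1231, 1082 and 1142 normalized counts against 3.78, 5.47 and 7.42, and ProtB 1858, 1183 and 1290 against 6.05, 7.90 and 5.94. Their 1000 R means were 207-fold and 218-fold higher (log2 changes -7.49 ± 0.42 and -7.55 ± 0.38 SE, adjusted p 2.00e-18 and 1.32e-19, limma). Both lie in a near-identical pair, so reads may be shared between them. The member not called was Tpl94D (-5.04), a transition protein.

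The sperm leucylaminopeptidases, abundant structural proteins of the mitochondrial derivatives of sperm, all fell, 9 of 9, with a median of -7.24. Among all genes 18.4% were called lower and 1.72% higher. S-Lap1 gave 43070, 38510 and 42450 normalized counts at 1000 R and 234, 260 and 394 at 20000 R, and loopin-1 gave 34590, 31540 and 34950 against 225, 193 and 261. No library of either group came near the other. The exception in size was grsm, at -1.22. Axonemal dyneins and tektins, the motors and ribs of the sperm tail's microtubules, had 7 of 10 tested members lower and 0 higher, with Tektin-A at -5.82, Tektin-C at -5.72 and Dhc98D at -4.64. The other 3 were dtr (-3.27), Dnai2 (-0.46) and Dhc93AB (0.21). The 6 Y-linked fertility genes in the table were below the minimum level.

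**Figure D2:**
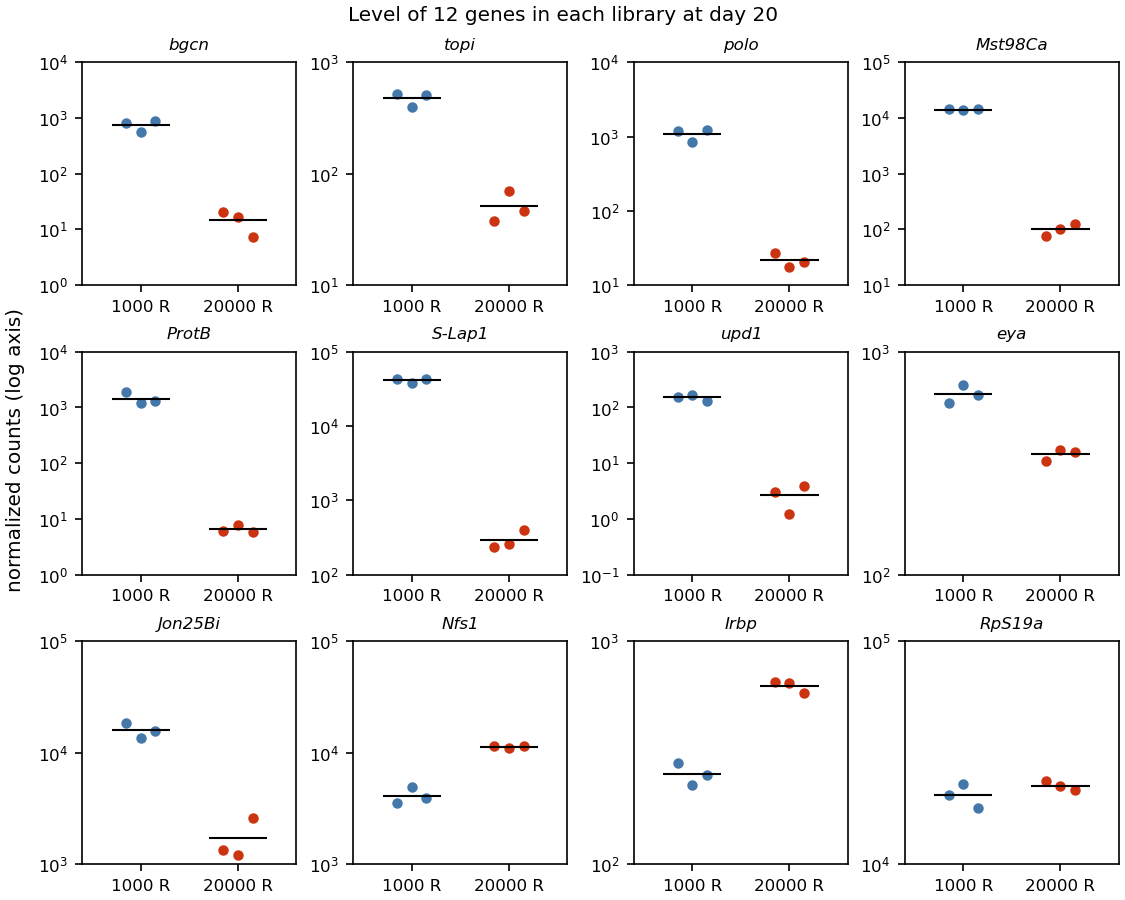
Normalized counts (log axis) of 12 genes in each of the 3 libraries (points) of 1000 R and 20000 R at day 20, with the group mean as a bar. Mst98Ca, ProtB and S-Lap1 drop by over 100-fold and bgcn and polo by about 50-fold, eya and Jon25Bi by less, Nfs1 and Irbp rise, and the points of RpS19a overlap.

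The largest fall in normalized counts was that of a gene the annotation gives only as FBgn0038762, at 73570, 63900 and 78100 at 1000 R and 516, 406 and 574 at 20000 R (log2 change -7.18 ± 0.18 SE, adjusted p 1.02e-28, limma). The largest on the log2 scale was CG2871, with 2295, 914 and 2572 against 6.80, 2.43 and 8.90 (-8.09 ± 0.95 SE, adjusted p 3.89e-09, limma). CG18170 and CG33791 have the same value in every library, as do 84 sets that hold 189 tested genes. Such genes share their reads, and 41 of the 189 are among the falls.

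Pairs of a widely expressed gene and its testis paralog split sharply. Of 40 pairs, written down with earlier results of these data known, 33 had both genes tested. In 32 of these the testis paralog was lower, with a median of -6.22. In 1 pair the widely expressed partner was lower, with a median of 0.02 and none higher. Over all genes 18.4% were lower, but with pairs chosen in this way the share is no test. Prosbeta5R1, the testis form of a catalytic proteasome subunit, read 1054, 887 and 936 normalized counts at 1000 R and 3.78, 2.43 and 6.93 at 20000 R. Prosbeta5 itself read 3092, 3124 and 2915 against 3414, 3683 and 3428 (log2 changes -7.56 ± 0.31 SE, adjusted p 1.68e-22, and 0.20 ± 0.16 SE, adjusted p 0.506, limma). mAcon2, a testis aconitase, fell by 6.82, while mAcon1, the citric acid cycle enzyme used in all tissues, had a change of 0.18 ± 0.14 SE. For the ribosome, RpS19b read 314, 270 and 326 at 1000 R and 3.78, 0.608 and 1.48 at 20000 R, and RpS19a 20330, 22840 and 17810 against 23690, 22420 and 21410, with overlap. The testis translation factor eIF4G2 was the shallowest of the falls, at -1.97, beside 0.35 ± 0.26 SE for eIF4G1. The widely expressed partner called lower was Taf8, at 223, 198 and 173 against 124, 119 and 94.0 (log2 change -0.82, adjusted p 0.0167, limma). Its call ended under quantile normalization (adjusted p 0.892) and without 1000 R library a or 20000 R library c.

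**Figure D3:**
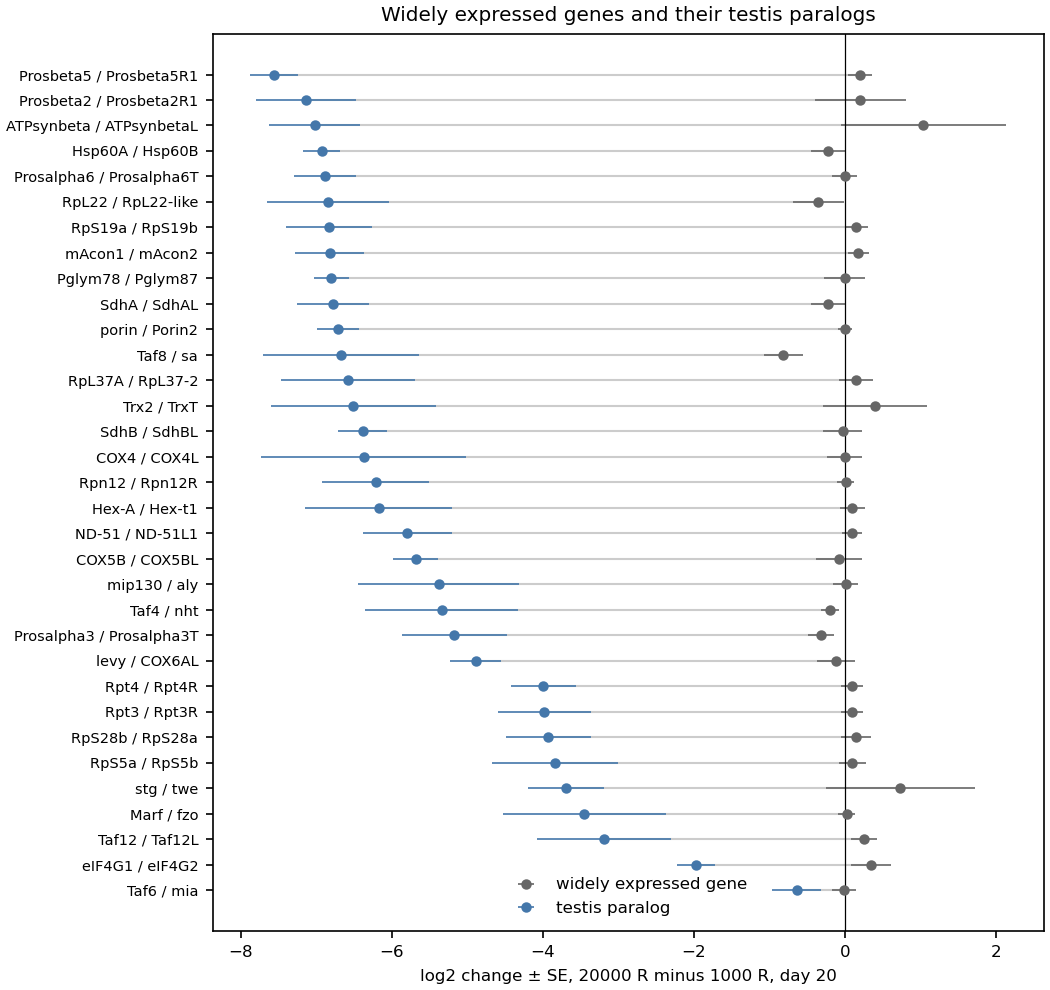
Log2 change ± SE between 20000 R and 1000 R at day 20 for 33 pairs of a widely expressed gene (grey) and its testis paralog (blue), joined by a line and sorted by the paralog's change. Testis paralogs run from -7.56 to -0.64 and widely expressed genes from -0.82 to 1.04.

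Whole sets gave the same contrast, beside 18.4% of all genes called lower. They hold some of the same genes as the pairs and were also chosen with earlier results known, so they are not separate evidence. All 13 testis proteasome subunits tested were lower, with a median of -6.04, and 4 of 32 general subunits were, with a median of -0.21 and log2 changes of the 4 (Rpn6, Rpn7, Rpn10 and Rpn13, lid and receptor subunits) between -0.43 and -0.37. Each of those 4 calls ended in at least 1 fit without a library, and for Rpn10 in all 6. Testis paralogs of the respiratory chain had 19 of 25 lower with a median of -5.69, against 0 of 61 general members with a median of -0.09. Testis ribosomal protein paralogs had 6 of 8 lower with a median of -4.37, against 0 of 68 general ones with a median of 0.14. At an unadjusted p under 0.05 limma had 0 general respiratory chain genes and 2 general ribosomal protein genes, edgeR and DESeq2 called 0 in both lists, and the fit of only the 6 libraries called 1 higher and 2 lower in the respiratory chain and 3 higher in the ribosome.

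Somatic genes of the testis were uneven. upd1, the ligand sent by the hub that keeps germline stem cells in place, read 155, 169 and 131 normalized counts at 1000 R and 3.02, 1.22 and 3.96 at 20000 R (log2 change -5.42 ± 0.75 SE, adjusted p 1.48e-07, limma). eya, a transcription cofactor of cyst cells that also works in the eye, read 588, 712 and 639 against 324, 364 and 355 (-0.89 ± 0.26 SE, adjusted p 0.00931, limma), and its call ended under quantile normalization (adjusted p 0.110). The other 5 of the 7 genes tested, among them tj (-0.02) and zfh1 (0.02), which mark cyst and hub cells, were not called. Over all genes limma called 18.4% lower and 1.72% higher. Of 27 genes of the accessory gland, which makes seminal fluid, 0 were called under limma or edgeR and 1 higher under DESeq2. Fitting only the 6 libraries called 1 higher, leaving out the 9 set apart 1 and quantile normalization 5. In limma 1 had an unadjusted p under 0.05, and the median was 0.51, which was 0.19 without 1000 R library b. hdly, a seminal fluid gene, was nearest to the threshold, at 614, 845 and 756 against 910, 977 and 1030 (0.41, adjusted p 0.0849, limma).

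Some genes known to respond to radiation through p53, a transcription factor activated by DNA damage, were higher at 20000 R. Of 13 tested, 3 were higher and 0 lower, beside 1.72% of all genes called higher, with a median of 0.65 beside 0.07 over all genes. All 13 had a positive change with all 6 libraries, and hid turned to -0.031 without 20000 R library b. Irbp, which encodes Ku70 of the end-joining pathway, read 285, 227 and 250 normalized counts at 1000 R and 657, 648 and 588 at 20000 R. The groups stood well apart (2.48-fold higher at 20000 R, log2 change 1.31 ± 0.33 SE, adjusted p 0.00203, limma). Gadd45, a stress gene, rose from 530, 585 and 475 to 1075, 932 and 828 (0.83 ± 0.21 SE, adjusted p 0.00196, limma) and egr, the TNF ligand of flies, from 364, 405 and 373 to 630, 614 and 553 (0.65 ± 0.19 SE, adjusted p 0.00844, limma).

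Other p53 target genes stood apart between the groups without passing the test. In the list 10 of 13 genes had groups without overlap, beside 21.2% of all genes in that direction. Ku80, the partner of Ku70, read 288, 295 and 352 against 634, 749 and 697 (log2 change 1.15 ± 0.88 SE, adjusted p 0.495, limma). RnrL, the large subunit of the enzyme that makes deoxyribonucleotides, read 142, 131 and 193 against 474, 531 and 564 (1.76 ± 0.85 SE, adjusted p 0.176, limma). Both were called when only the 6 libraries were fitted, where 7 of the list's 13 genes were higher, and without the 9 libraries set apart, where 9 were. mre11, a nuclease of break repair, gave 398, 345 and 447 against 556, 671 and 635 (adjusted p 0.0745, limma), and p53 itself 198, 144 and 137 against 243, 235 and 222 (adjusted p 0.176, limma). hid, a p53 target that starts cell death, read 218, 231 and 204 against 187, 261 and 241, with overlap. rpr and skl, death genes of the same locus, were below the minimum level.

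DNA repair genes outside that list had 1 of 35 tested members higher and 3 lower, beside 1.72% and 18.4% of all genes. agt, the methyltransferase that removes alkyl groups from guanine, read 109, 86.8 and 111 against 250, 304 and 346 (log2 change 1.54 ± 0.35 SE, adjusted p 0.000652, limma). Blm, a helicase that fly germ cells need, read 883, 801 and 907 against 285, 269 and 246 (-1.69 ± 0.25 SE, adjusted p 4.15e-07, limma), phr6-4, a photolyase, fell by 2.58 and Rrp1, an endonuclease of base excision repair, by 1.08. Of 12 cell death genes, AIF, a mitochondrial flavoprotein, was lower (-2.01) and 0 were higher, and the caspases Dcp-1 (0.20) and Drice (0.08) were not called.

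**Figure D4:**
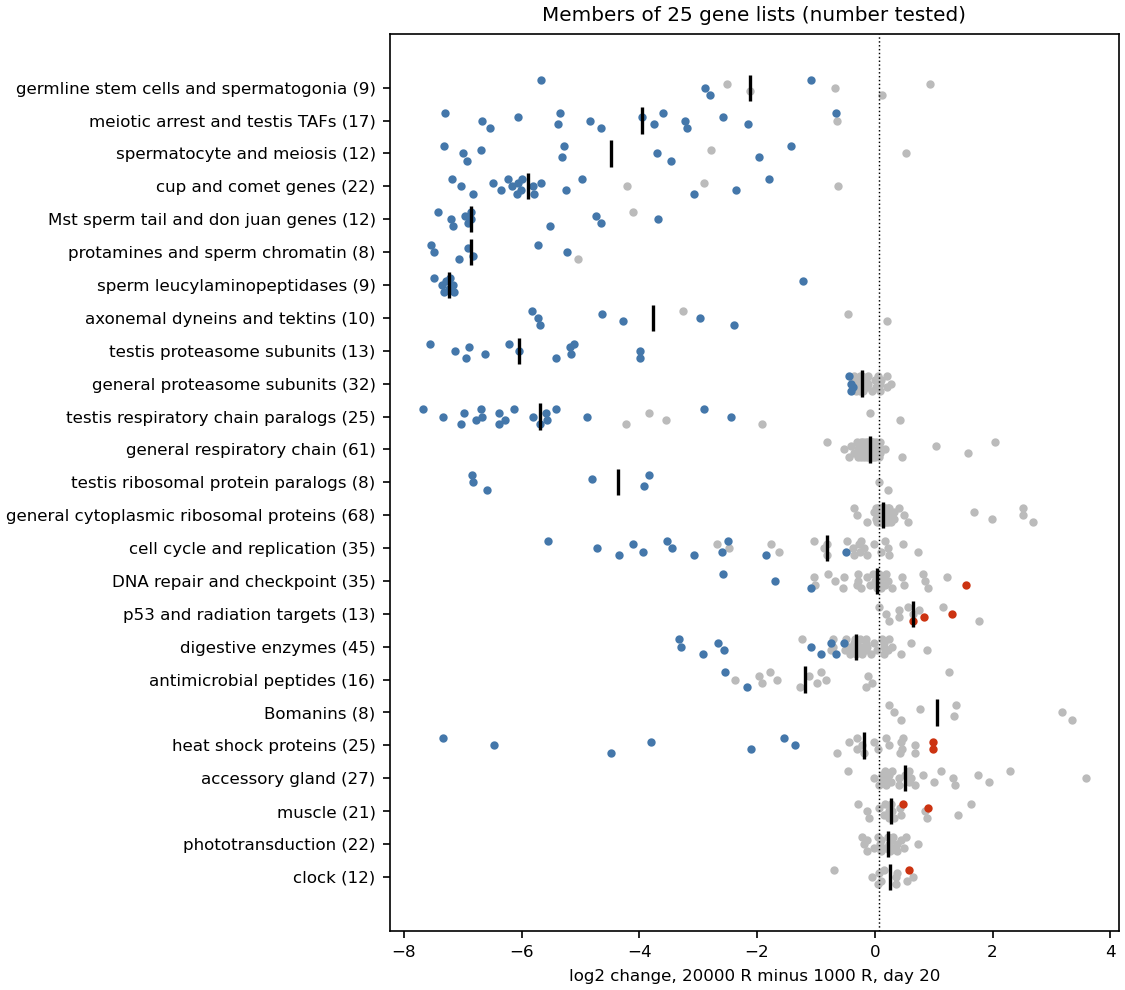
Log2 change between 20000 R and 1000 R at day 20 for each tested member (point) of 25 gene lists, blue where called lower, red where called higher and grey where not called, with the list's median as a bar and the median of all genes, 0.07, as a dotted line. Lists of the germ line and testis paralogs lie far to the left, with medians from -7.24 to -2.12, and the medians of the other lists run from -1.19 to 1.06.

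Several proteases of the gut fell at day 20. Of 45 digestive enzymes tested, 10 were lower and 0 higher, beside 18.4% of all genes called lower, so the share of the list is near the background. Its median was -0.31, and 8 of the 10 were Jonah genes, serine proteases of the midgut. Jon25Bi read 18440, 13550 and 15630 normalized counts at 1000 R and 1330, 1197 and 2576 at 20000 R. The lowest 1000 R library was over 5-fold above the highest 20000 R library, and the means differed 9.33-fold (log2 change -3.30 ± 0.48 SE, adjusted p 4.16e-07, limma). Jon65Ai read 2630, 3364 and 3311 against 423, 481 and 569 (-2.66 ± 0.30 SE, adjusted p 9.40e-10, limma). Log2 changes were -3.33 for Jon25Bii, -2.92 for Jon66Ci and -0.91 and -0.66 for the maltases Mal-A4 and Mal-A3, while trypsins such as alphaTry (-0.15) and betaTry (-0.33) were not called. Jonah genes lie in near-identical clusters, so reads may be shared between them.

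Antimicrobial peptides, which fat body and gut make on infection, had 2 of 16 tested genes lower and 0 higher, beside 18.4% and 1.72% of all genes. Their median was -1.19, but -2.08 without 20000 R library a, -0.53 without 20000 R library b, -0.42 in edgeR and -0.51 under quantile normalization. Def read 425, 612 and 316 normalized counts against 62.0, 119 and 117 (log2 change -2.18 ± 0.55 SE, adjusted p 0.00201, limma), and its call ended under quantile normalization (adjusted p 0.0566). DptA rested on few libraries, at 4286, 3083 and 3143 against 2483, 306 and 272 (adjusted p 0.0478, limma): library a of 20000 R stood close to 1000 R, and leaving out any library but that one or changing to edgeR ended the call. The summed level of the list was 22400 in 20000 R library a and 7129 and 6526 in b and c. PGRP-SC1b and PGRP-SC1a, amidases that break down bacterial peptidoglycan, fell by 1.56 and 1.66 (adjusted p 0.00312 and 0.00322, limma), but these near-identical genes may share reads. The short immune peptides of the Bomanin family had 0 of 8 called by limma, edgeR or DESeq2. In limma 1 had an unadjusted p under 0.05, and the median was 1.06. Fitting only the 6 libraries called 1 higher, leaving out the 9 set apart 2 and quantile normalization 2.

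The rise with the smallest p of all was that of Nfs1, a cysteine desulfurase whose sulfur goes into iron-sulfur clusters. It read 3505, 4881 and 3902 normalized counts at 1000 R and 11370, 11130 and 11450 at 20000 R. The 20000 R libraries lay within a narrow band, 2.76-fold above the 1000 R mean (log2 change 1.48 ± 0.14 SE, adjusted p 7.32e-12, limma). Qtzl, a young gene that holds a copy of part of Nfs1, rose by 1.47 and may share its reads. IscU, the scaffold on which clusters are built, had a change of 0.47 ± 0.22 SE (adjusted p 0.162, limma). Of 15 genes of iron, sulfur and metals tested, 1 was higher, Nfs1, and 2 were lower, beside 1.72% and 18.4% of all genes. The 2 lower were mfrn (-0.57) and Fer3HCH. Fer3HCH, a ferritin known from fly testis, read 195, 67.6 and 190 against 4.54, 5.47 and 9.40 (-4.25 ± 1.13 SE, adjusted p 0.00394, limma). The ferritins Fer1HCH (0.11) and Fer2LCH (0.15) were not called.

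Arc1, which makes capsid-like particles that carry RNA between cells, had the largest rise in normalized counts among the genes called higher. It read 27160, 44590 and 29830 at 1000 R and 86560, 70170 and 81600 at 20000 R (log2 change 1.26 ± 0.20 SE, adjusted p 3.29e-06, limma). CR10102 rose with it, from 6159, 10140 and 6333 to 18700, 15970 and 18270 (1.26 ± 0.21 SE, adjusted p 3.96e-06, limma). The 6 libraries ranked alike for Arc1 and CR10102, which may share reads, and this was not tested. CG2076, a gene with no role known here, went from 6069, 7040 and 5934 to 11780, 12600 and 12590 (0.96 ± 0.20 SE, adjusted p 0.000154, limma). tim, a repressor of the circadian clock, was higher at 7975, 7653 and 7374 than at 5103, 5556 and 4766 (0.58 ± 0.11 SE, adjusted p 2.76e-05, limma). In limma it was called alone among 12 clock genes, beside 1.72% of all genes called higher and 18.4% lower. Fitting only the 6 libraries or leaving out the 9 set apart called 3 higher and 1 lower, and quantile normalization 3 higher. per, the partner of tim, had a change of 0.65 ± 0.25 SE (adjusted p 0.0661, limma).

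Several large rises on the log2 scale came from genes of cuticle and body wall, at low levels. Vajk2 read 27.4, 62.0 and 55.4 normalized counts against 321, 221 and 177 (log2 change 2.33 ± 0.48 SE, adjusted p 0.000160, limma), and Cpr76Bd, with a chitin-binding domain, 75.4, 116 and 145 against 232, 391 and 319 (1.49 ± 0.31 SE, adjusted p 0.000169, limma). CG5172, Acp1 and CG7214 were called higher but rested on library a of 20000 R. CG5172 read 438 there and 22.5 and 9.40 in the others, Acp1, a cuticle protein of the adult, 1119 against 32.8 and 21.3, and CG7214 301 against 37.1 and 31.7. Without that library the adjusted p values of CG5172, Acp1 and CG7214 were 0.131, 0.388 and 0.394 (limma). Other cuticle genes fell, Twdlalpha from 629, 567 and 568 to 17.4, 58.4 and 19.8 (-4.38 ± 0.35 SE, adjusted p 1.45e-13, limma). Of 56 tested, 4 were higher and 6 lower, beside 1.72% and 18.4% of all genes.

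Heat shock proteins moved in both directions. Of 25 tested, 7 were lower and 2 higher, beside 18.4% and 1.72% of all genes. Hsp60C, a mitochondrial chaperone of the testis, fell from 18350, 16630 and 17360 normalized counts to 120, 102 and 102, and Hsc70-2 from 5894, 7058 and 7022 to 273, 293 and 331. Hsp27, which germ cells carry without heat shock, fell by 3.80. The 2 that rose, Hsp22 and its neighbour CG4456, have nearly the same value in every library, so they share reads (CG4456 3091, 4182 and 3352 against 7056, 6900 and 6925, log2 change 0.99 ± 0.24 SE, adjusted p 0.00157, limma). Hsp22, a small mitochondrial chaperone, lies outside the naming rule and was chosen after its values were seen. The heat-inducible Hsp70 copies had changes from 0.43 to 0.68 and were not called.

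For detoxification and antioxidant genes the count of calls depended on the fit. Among all genes limma called 18.4% lower and 1.72% higher. Of 33 glutathione S-transferases 1 was higher and 2 lower, of 81 cytochrome P450s and 28 UDP-glucuronosyltransferases 0 were called by limma, with 3 of each at an unadjusted p under 0.05, and of 18 oxidative stress genes 1 was higher and 2 lower. edgeR and DESeq2 called 0 P450s, and 1 higher and 1 lower among the UDP-glucuronosyltransferases. Fitting only the 6 libraries called 12 higher and 2 lower among the P450s and 5 higher and 1 lower among the UDP-glucuronosyltransferases, and leaving out the 9 libraries set apart 19 and 3, and 8 and 1. Quantile normalization called 19 P450s, 15 UDP-glucuronosyltransferases and 10 glutathione S-transferases higher. The medians of the P450s and the UDP-glucuronosyltransferases were 0.40 and 0.73, and 0.22 and 0.31 without 1000 R library b. The members that fell included GstS1, from 10850, 9700 and 10280 normalized counts to 3998, 3875 and 4049 (log2 change -1.37 ± 0.16 SE, adjusted p 2.52e-09, limma), Prx4, a peroxiredoxin, by 1.44, and TrxT, the testis thioredoxin, by 6.51.

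Markers of eye, nerve, muscle, smell and blood gave 0 to 4 calls a list in limma, beside 18.4% of all genes called lower and 1.72% higher. Of 22 phototransduction genes 0 were called by limma or edgeR and 1 higher by DESeq2, with 3 at an unadjusted p under 0.05 (limma), and of 26 neuronal genes 2 were lower, acj6 (-1.91) and Vmat (-0.53), which encode a transcription factor of sensory neurons and the vesicular monoamine transporter. acj6 lost its call under quantile normalization (adjusted p 0.0670). Of 21 muscle genes 2 were higher. Act88F, the flight muscle actin, read 678, 1192 and 879 against 1611, 1659 and 1755 (log2 change 0.91, adjusted p 0.00658, limma), with an adjusted p of 0.0808 without 1000 R library a. Of 32 odorant-binding proteins 4 were lower, of which Obp50b and Obp50c have the same value in every library and so are 1 measurement. Obp99a fell from 1380, 1256 and 1281 to 17.4, 18.2 and 22.8 (-6.005 ± 0.62 SE, adjusted p 1.62e-10, limma). Among 15 blood cell, 13 insulin and 11 Turandot and JAK/STAT genes 0 were called by limma or edgeR, with 4, 0 and 0 at an unadjusted p under 0.05 (limma) and medians of 0.47, 0.22 and 0.30. DESeq2 called 1 blood cell gene higher, the fit of only the 6 libraries 4, the fit without the 9 libraries 6 and quantile normalization 7, and all 15 blood cell genes had a positive change. The Turandot and JAK/STAT median was 0.018 without 1000 R library b and 0.13 in edgeR.

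The same doses were compared in other libraries at the earlier days. At day 10, 2465 genes were lower (19.8%) and 358 higher (2.87%), 22.6% together, and without the 9 libraries set apart, of which 1 is 20000 R day 10 library a, 3192 and 1009. The falls were largely shared: 2157 genes were lower on both days, which is 94.1% of those at day 20 and 87.5% of those at day 10. Of the rises 105 were shared, 49.1% and 29.3%. At day 2, 0 genes were lower and 7 higher (0.0561%), with 189 at an unadjusted p under 0.05 in either direction, and 9 and 18 without the 9 libraries. The genes that fell by day 20 had a median log2 change of -4.72 then, of -4.40 at day 10 and of only -0.19 at day 2.

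No gene passed the test of a different response at day 20 and day 10 in limma, with 210 at an unadjusted p under 0.05, while edgeR called 3 and DESeq2 50 (2 higher and 48 lower). CG12506, among the genes with the smallest p for that difference, changed by -5.94 on the log2 scale at day 20 and by -2.40 at day 10, beside 0.32 at day 2, and scpr-B, one of the comet genes, by -5.99 and -2.80, beside 0.09 (difference between days 20 and 10 -3.53 and -3.19, adjusted p 0.0995 and 0.216, limma). DESeq2 and the fit of the groups compared alone called both differences. The gut protease Jon65Ai had values of -2.66, -0.71 and -0.14 in the same order, with a day 20 to day 10 difference of -1.95 ± 0.42 SE (adjusted p 0.155, limma). Between day 20 and day 2 the test called 1606 genes with a more negative and 28 with a more positive response (12.9% and 0.224%). Jon65Ai and Jon25Bi were among them (differences -2.52 ± 0.42 and -3.42 ± 0.68 SE, adjusted p 8.15e-06 and 0.000149, limma), as was Nfs1 (0.86 ± 0.19 SE, adjusted p 0.000759, limma). The radiation genes Irbp and Gadd45 were not (0.29 ± 0.47 and 0.25 ± 0.29 SE), and Arc1 had a larger change at day 2, 1.67, than at day 20, with no call for the difference (adjusted p 0.605, limma).

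Setting the lower dose against unirradiated males of day 20, which have 2 libraries, called 2 genes higher and 0 lower (0.016%), and 0 without the 9 libraries, where 1 control library was left. Neighbouring doses in other libraries of day 20, 10000 R against 5000 R, gave 2348 lower (18.8%) and 777 higher (6.23%), and 2802 and 828 without the 9. Falls shared with 20000 R against 1000 R numbered 1973, 86.1% and 84.0% of each list, and shared rises 96, 44.9% and 12.4%.

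Along the doses of day 20 the germ line genes Mst98Ca and bgcn stepped down between 5000 R and 10000 R. Control library b, 10 R library c and 5000 R library c of day 20 are among the 9 libraries set apart. They are kept in the group values here and in those of the other genes below. Mst98Ca averaged 15310 normalized counts in controls (n = 2), 13710 ± 583 at 10 R, 14160 ± 494 at 1000 R, 15040 ± 5399 at 5000 R, 315 ± 71.9 at 10000 R and 99.8 ± 24.4 at 20000 R (SD, n = 3 each). The first 4 overlapped and the last 2 overlapped with none of them nor with each other. bgcn went from 587 ± 121 at 5000 R to 23.4 ± 5.07 and 14.8 ± 6.65 (SD, n = 3), and the last 2 overlapped.

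Nfs1 climbed over the upper doses without such a step. It averaged 4096 ± 709 normalized counts at 1000 R, 5616 ± 323 at 5000 R, 9031 ± 338 at 10000 R and 11320 ± 168 at 20000 R (SD, n = 3 each), and these 4 groups did not overlap. Irbp averaged 254 ± 29.4, 258 ± 83.8, 433 ± 21.9 and 631 ± 37.5 at the same doses (SD, n = 3 each), with overlap of the lower pair. Jon25Bi spread widely in between, from 1613 to 10300 at 5000 R and 2683 to 9640 at 10000 R, and its 20000 R libraries, 1197 to 2576, overlapped with those of 5000 R. In controls (n = 2) it lay between 8718 and 10220, below all 3 libraries of 1000 R (13550 to 18440).

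**Figure D5:**
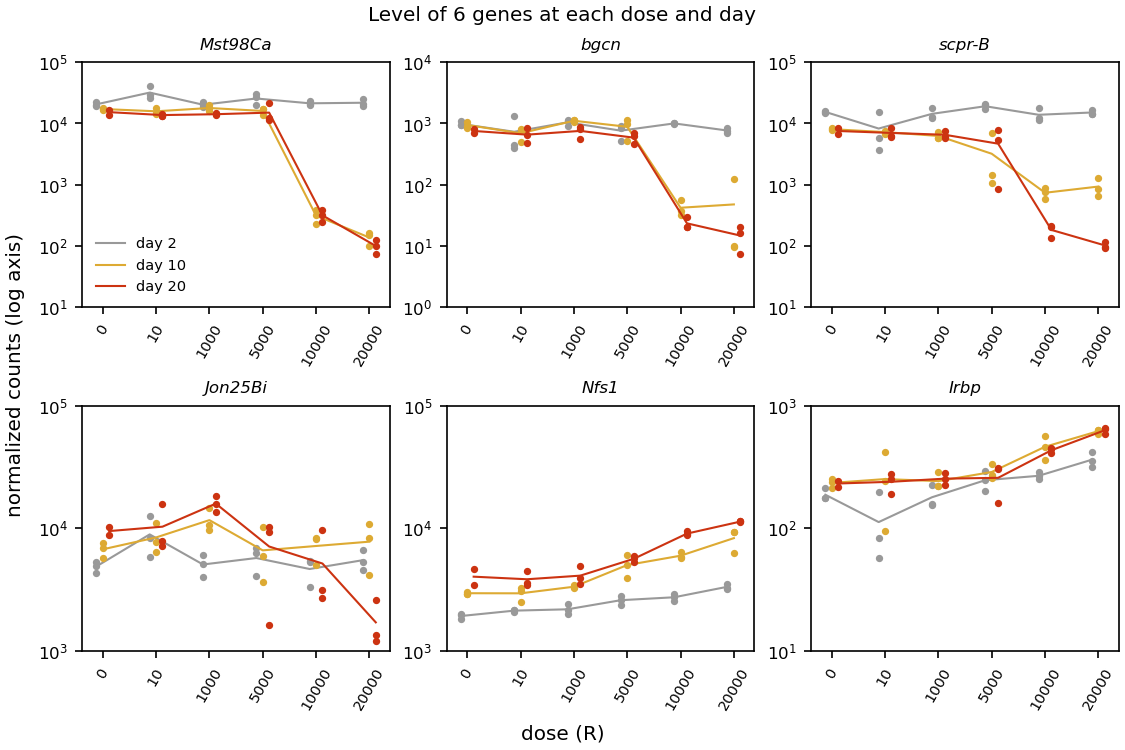
Normalized counts (log axis) of 6 genes at each dose in R (evenly spaced, 0 for controls) on days 2, 10 and 20, with points for libraries (3 per group, 2 for controls at day 20) and lines through group means. Mst98Ca and bgcn drop at 10000 R and above on days 10 and 20 but not on day 2, Jon25Bi is lowest at 20000 R on day 20, and Nfs1 and Irbp climb with dose.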

How the data were processed

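Polyadenylated RNA of whole males was measured in 53 libraries, 18 groups of dose and day. The authors deposited a normalized count signal for 15222 genes, and per the submitters' processing notes used TopHat2 2.0, DESeq and build dm3. For the counting program and the annotation, these sources give nothing. Every deposited signal value is a whole multiple, within 0.1, of one step per library, so it is a read count divided by a size factor. The recovered reads, 15.4 to 46.2 M per library, went to edgeR 4.0.16 and DESeq2 1.42.0 as alternatives.

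The main test was limma 3.58.1 (R 4.3.3, eBayes with trend) on log2(value + 1), a scale that understates changes of low genes, with a mean for each of 18 groups and Benjamini-Hochberg adjustment over 12475 genes at 0.05. Fold changes are limma log2 changes with standard errors (SE), or ratios of group means where called "-fold". On simulated data of 12475 genes for this comparison, limma recovered 83% of changes of size 1 and 100% of size 2, with 4 false calls. The simulation changed 100 genes of each size, gave every gene the same dispersion (0.03) and held no libraries that stand apart. Its rates do not carry over to the data, where a gene not called is not shown to be unchanged. Symbols were matched to 14347 identifiers in an annotation of another build, so no coordinates are given.

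Members and lists were chosen with earlier results of these data known, and 50 list symbols matched no gene. Named genes are the 15 largest log2 rises and falls and the 10 largest in normalized counts (mean of at least 50 over the 6 libraries, no overlap), 4 members of each list (lowest p), 12 radiation genes, both genes of each paralog pair and the 10 smallest p per difference between days. The rule took 298 genes, of which the text gives part. Other members of lists, named to account for a count or as contrast, were chosen after their values were seen. The letters a, b and c follow the order of the columns, which carry no replicate number. Alternatives were other pseudocounts (0.5 and 10), no minimum or one of 50, quantile normalization, only the groups compared, 9 libraries left out, edgeR, DESeq2 and each of the 6 libraries left out.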

Additional observations from a re-analysis of the deposited data

Results flagged for a closer look

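Among the genes for which the change from 1000 R to 20000 R differed by the test between day 20 and day 2 (limma, adjusted p under 0.05 over 12475 genes) are the 12 given here. Most of them had a more negative change at day 20, where day 20 minus day 2 gives the difference on the log2 scale. It was -6.996 for Ppi1, -6.43 for Gpo3, a glycerophosphate oxidase of the testis, and -6.93 for Hex-t2, a testis hexokinase. It was -7.27 for Mst98Ca, a gene of the sperm tail, and -7.03 for FBgn0038762, which has no symbol. For genes with no role known here it was -7.03 for CG33340, -7.12 for CG14718 and -6.68 for CG8701. CG33791 and CG18170 have the same value in every library and a difference of -5.89 each, so they are 1 measurement. In these genes every 20000 R library of day 20 lay below every 1000 R library.

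The other genes had a more positive change at day 20 than at day 2. Nfs1 had a difference of 0.86 and CG9377 of 1.95. CG9377 read 228, 280 and 313 normalized counts at 20000 R and 94.0, 159 and 99.6 at 1000 R on day 20, and its call at day 20 ended without 1000 R library a or c or 20000 R library c.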

How the results depend on the processing

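No paired analysis was possible because the columns of the table carry no replicate number. The falls at day 20 stayed within 1.5 times of 2292 under every alternative run (2019 to 2936). The rises, 214, became 2748 after quantile normalization, 904 with only the groups compared, 1032 without the 9 libraries and 131 to 146 with 1 of the 6 libraries left out. The cause was not tested. For the difference between days 20 and 10, where limma called 0, edgeR called 3 lower, DESeq2 2 higher and 48 lower, the groups compared alone 2 lower, and the fit without the 9 libraries 9 higher and 9 lower. For days 20 and 2 the 28 more positive responses became 439 after quantile normalization, 352 with only the groups compared, 343 without the 9 libraries, 50 in DESeq2 and 16 to 27 with 1 library left out, lowest without 1000 R library b. The p53 target genes called higher, 3, became 9 after quantile normalization, 7 with only the groups compared and 9 without the 9 libraries. Of the other comparisons, refitted without the 9 libraries as an alternative chosen after seeing the data, the rises at day 10 went from 358 to 1009, day 2 from 7 higher and 0 lower to 18 and 9, and 1000 R against control from 2 to 0. Among named genes, hid changed sign without 20000 R library b (-0.031, to 0.208 with another of the 6 left out). Depth of 20.9 to 46.2 M reads limits genes near the minimum level, where 3 reads correspond to 1.86 normalized counts at 20000 R.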
